A study of Mus musculus with 8 samples.

Results

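Transcripts of 5 subunits of the phagocyte NADPH oxidase, Cyba, Cybb, Ncf1, Ncf4 and Rac2, were followed across 8 bone marrow libraries from leukaemic mice. The 5 genes were chosen by name after earlier results from these libraries were known, so their levels and group differences are given as a description. No p-value is printed for a single member. Counts of members that passed a test are given beside those of all genes, and nothing is read from them. Each had a row in the table of 18020 genes, and all 5 passed the filter on low values. Each mouse had been transplanted with BCR-ABL1+ B-ALL cells, B-lineage leukaemia cells that carry the BCR-ABL1 fusion kinase. In KO_LPS (n = 3) the transplanted cells were Aid KO, without the cytidine deaminase of antibody diversification, and treated with lipopolysaccharide (LPS). In WT_LPS (n = 3) they were Aid WT and LPS-treated, and in WT_PBS (n = 2) Aid WT and treated with phosphate-buffered saline. Genotype and treatment thus belong to the leukaemia cells, while the marrow also holds cells of the host. Age, strain and Aid genotype of the hosts are not in the labels, nor whether each mouse had a leukaemia culture of its own. No library of Aid-deficient cells with saline was analysed here.

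The oxidase moves electrons from cytosolic NADPH across the phagosomal or plasma membrane to oxygen and so makes superoxide, which neutrophils and macrophages use against microbes. Cybb encodes the catalytic, haem-carrying chain and Cyba its partner in the membrane, where the pair forms flavocytochrome b. In resting cells the other subunits stay in the cytosol. Ncf1 encodes the organiser that docks on Cyba after phosphorylation, Ncf4 a subunit that binds a phosphoinositide of the phagosome, and Rac2 the small GTPase of blood cells that switches the complex on. Loss of Cybb, Cyba, Ncf1 or Ncf4 function in people causes forms of chronic granulomatous disease. Oxidase subunit genes are also transcribed in lymphocytes, and which cells gave the transcripts here was not tested.

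The libraries were mixtures. The labels give the cells as B lymphocytes. The 13 B-lineage markers summed to 7300 to 8789 FPKM (fragments per transcript kilobase relative to all mapped fragments) in KO_LPS replicates 1 and 2. In the other 6 libraries they summed to 5990 to 7462 FPKM. Igll1 and Vpreb1 were the largest terms, at 3187.81 and 2945.85 FPKM in KO_LPS replicate 1. The sum does not speak for each marker. Of 12 tested, 9 had a lower mean log2 level in KO_LPS than in WT_LPS and 3 a higher one. Of all tested genes, 58.0% were lower in KO_LPS. Summed over 20 neutrophil markers, the level was 7447, 6395 and 16030 FPKM in KO_LPS, 31440, 10380 and 9716 FPKM in WT_LPS, and 13980 and 17540 FPKM in WT_PBS. None of the neutrophil markers was listed at 0 throughout. KO_LPS replicates 1 and 2 and WT_LPS replicate 1 stood apart, with first principal component scores of 34.5, 50.02 and 17.4 against -35.1 to -1.30 in the other 5, and with median FPKM of 2.98, 2.78 and 3.10 against 3.67 to 4.23. In the titles, the sample numbers of the libraries that stood apart and of WT_PBS replicate 1 were lower than those of all others. What the numbers stand for is not in the labels, and their part in the levels was not tested. Deposited values summed to between 606576 and 700238 FPKM per library, and the depth in reads is unknown.

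On GRCm38 the members lie at separate loci except for one pair. Cyba spans chr8:122424771-122432940, Cybb chrX:9435252-9487766 and Ncf1 chr5:134220053-134229628. Ncf4 (chr15:78244164-78262582) and Rac2 (chr15:78559169-78572783) are on the same chromosome, 297 kb apart. Predicted RefSeq loci overlap Ncf1 and Cybb. They have no row in the table, and strand-specific counting is not stated, so reads from them cannot be told apart from those of the members.

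RefSeq promoter windows on GRCm38.p6 (250 bases before to 50 after a start site) were matched for 3 of the 5 members. These 3 are shown because no window was available for Ncf4 and Rac2, and their part in the transcript levels was not tested. The Cybb window lies inside the annotated span of the gene. All 3 are on the minus strand and read 5′ to 3′ along the gene. Capitals mark matches, on either strand, to GAGGAA (the PU.1 core), GGCGGG (the Sp1 GC box) or CCAAT (the CCAAT box).
Cybb, chrX:9469275-9469574: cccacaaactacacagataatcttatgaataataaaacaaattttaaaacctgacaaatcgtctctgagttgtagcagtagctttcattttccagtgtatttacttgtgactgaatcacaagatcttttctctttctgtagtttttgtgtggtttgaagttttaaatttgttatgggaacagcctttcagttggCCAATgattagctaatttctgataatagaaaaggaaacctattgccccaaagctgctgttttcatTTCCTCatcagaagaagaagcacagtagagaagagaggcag
Cyba, chr8:122432891-122433190: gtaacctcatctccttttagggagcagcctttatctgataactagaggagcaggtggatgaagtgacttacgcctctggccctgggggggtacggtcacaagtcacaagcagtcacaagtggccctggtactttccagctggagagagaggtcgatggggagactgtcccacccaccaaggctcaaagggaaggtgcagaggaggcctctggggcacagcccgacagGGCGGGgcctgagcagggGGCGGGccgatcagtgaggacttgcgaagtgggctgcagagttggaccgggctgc
Ncf1, chr5:134229576-134229875: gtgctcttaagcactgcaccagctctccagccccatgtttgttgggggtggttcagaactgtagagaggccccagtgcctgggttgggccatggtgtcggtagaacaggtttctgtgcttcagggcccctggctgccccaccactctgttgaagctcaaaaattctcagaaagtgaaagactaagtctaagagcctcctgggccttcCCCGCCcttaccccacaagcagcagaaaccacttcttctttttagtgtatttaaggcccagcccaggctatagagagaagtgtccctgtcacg

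The windows differed in the letters they hold. In Cybb, a CCAAT box began at -56 from the start site and a PU.1 core, on the opposite strand, at base 10 after it. Cyba had GC boxes at -23 and -5, and Ncf1 had 1 on the opposite strand at -43. The IRF core AANNGAAA, not in capitals, matched 6 times in Cybb and 1 time in Ncf1. In Cybb, neighbouring IRF matches at -33 and -27 overlap each other, and another overlaps the PU.1 core. Of 32851 promoter windows of this length, 28.3% hold the PU.1 core, 35.3% the GC box, 37.4% the CCAAT box and 23.9% the IRF core. A match is a description of the letters and not a binding site.

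The catalytic pair was abundant and steady. Cyba read 310.6, 234.68 and 281.26 FPKM in KO_LPS, 378.37, 296.26 and 257.51 FPKM in WT_LPS, and 277.66 and 319.82 FPKM in WT_PBS. Cybb read 88.44, 70.25 and 81.21 FPKM in KO_LPS, 75.81, 81.92 and 65.75 FPKM in WT_LPS, and 76.61 and 82.4 FPKM in WT_PBS. For both genes the 3 groups overlapped. The highest of the 8 libraries exceeded the lowest by 1.61 times for Cyba and 1.35 times for Cybb, against a median of 1.65 over the 8371 genes that averaged 5 FPKM or more and had no value of 0. Cyba was at 3.34 to 4.99 times the level of Cybb, highest in WT_LPS replicate 1.

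Rac2 was as steady. It read 198.5, 192.25 and 209.37 FPKM in KO_LPS, 252.59, 204.73 and 217.21 FPKM in WT_LPS, and 211.75 and 217.96 FPKM in WT_PBS. KO_LPS and WT_LPS overlapped, while the 3 KO_LPS libraries lay just below both WT_PBS libraries. Its paralog Rac1, which serves most cell types, was at 265.66, 272.1 and 283.4 FPKM in KO_LPS, 259.64, 256.72 and 273.47 FPKM in WT_LPS, and 253.45 and 249.62 FPKM in WT_PBS. Rac1 was higher in each KO_LPS library than in both WT_PBS libraries. Between these groups, 21.5% of the genes tested did not overlap in either direction. The Rac2 to Rac1 ratio was 0.747, 0.707 and 0.739 in KO_LPS, against 0.973, 0.797 and 0.794 in WT_LPS and 0.835 and 0.873 in WT_PBS. The KO_LPS libraries thus had the 3 lowest ratios. This is 1 of several ratios described here, and no share over other gene pairs was computed. The longest identical stretch between the longest coding transcripts of Rac2 and Rac1 was 29 bases, and 23 bases between Rac2 and Rac3, the third Rac gene.

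The cytosolic organiser Ncf1 was uneven. It read 15.05, 6.86 and 62.33 FPKM in KO_LPS, 56.36, 58.86 and 42.06 FPKM in WT_LPS, and 40.7 and 87.68 FPKM in WT_PBS. KO_LPS replicates 1 and 2 were the lowest of the 8 libraries and KO_LPS replicate 3 was the second highest, so KO_LPS spanned the whole range of WT_LPS and overlapped WT_PBS, whose replicate 2 was above every KO_LPS library. The highest library exceeded the lowest by 12.8 times, a larger ratio than in 99.6% of the 8371 genes. Within libraries, Ncf1 stood at the 61.2 percentile of all rows at its lowest and at the 94.2 percentile at its highest.

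Ncf4, which encodes the phosphoinositide-binding subunit, had the same low libraries. It read 21.11, 20.77 and 57.17 FPKM in KO_LPS, 57.58, 62.09 and 47.6 FPKM in WT_LPS, and 55.14 and 69.09 FPKM in WT_PBS. KO_LPS replicates 1 and 2 were again the lowest, and KO_LPS replicate 3 lay within both other groups. The ratio of highest to lowest was 3.33, above that of 92.1% of genes.

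**Figure D1:**
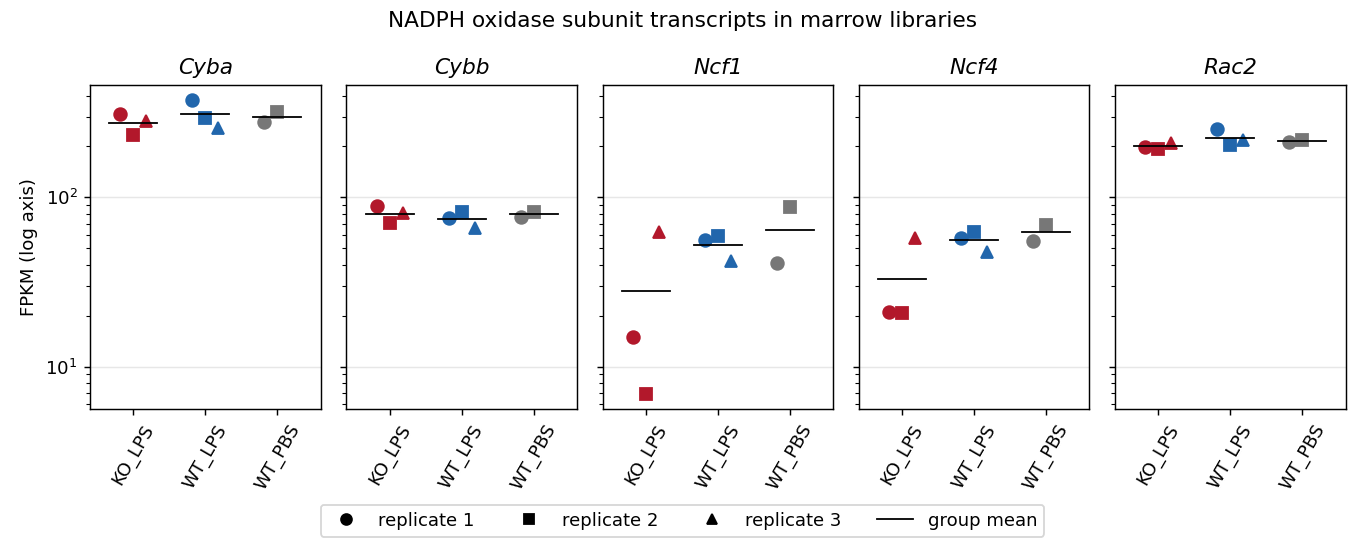
FPKM (log axis) of the 5 subunit genes in KO_LPS, WT_LPS and WT_PBS libraries, with 1 point per library and a line at the group mean. Cyba, Cybb and Rac2 lie close together in all libraries, whereas Ncf1 reaches 6.86 FPKM and Ncf4 20.77 FPKM in KO_LPS replicate 2.

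The order of levels, on the per-length scale of FPKM, was the same at the top in every library, with Cyba above Rac2 and Rac2 above the other 3 members. Cyba exceeded Rac2 by 1.19 to 1.56 times within a library. Cybb followed in 7 libraries and was below Ncf1 in WT_PBS replicate 2. Ncf4 was above Ncf1 in 6 libraries, and Ncf1 was above Ncf4 in KO_LPS replicate 3 and WT_PBS replicate 2. Within WT_LPS, Ncf4 was the higher in each library, with Ncf1 to Ncf4 ratios of 0.979, 0.948 and 0.884, although the ranges of the 2 genes over the 3 libraries overlapped.

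Cybc1, which encodes a chaperone for the membrane pair, was steady like its clients. It read 64.47, 67.44 and 63.52 FPKM in KO_LPS, 72.07, 64.89 and 69.6 FPKM in WT_LPS, and 79.06 and 66.71 FPKM in WT_PBS. KO_LPS overlapped both other groups.

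Proportions between subunits within a library showed the unevenness without a comparison of totals. The Ncf1 to Cybb ratio was 0.17, 0.0977 and 0.768 in KO_LPS, 0.743, 0.719 and 0.64 in WT_LPS, and 0.531 and 1.06 in WT_PBS. The Ncf4 to Cybb ratio was 0.239, 0.296 and 0.704 in KO_LPS, 0.76, 0.758 and 0.724 in WT_LPS, and 0.72 and 0.838 in WT_PBS. Cyba to Cybb, by contrast, was 3.51, 3.34 and 3.46 in KO_LPS, 4.99, 3.62 and 3.92 in WT_LPS, and 3.62 and 3.88 in WT_PBS. Thus 2 of 3 KO_LPS libraries had less cytosolic organiser transcript per membrane subunit transcript than any library with intact Aid, and the third did not.

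Ncf1 varied more than Ncf4. The Ncf1 to Ncf4 ratio was 0.713, 0.33 and 1.09 in KO_LPS, 0.979, 0.948 and 0.884 in WT_LPS, and 0.738 and 1.27 in WT_PBS. Against Csf3r, the receptor for the neutrophil growth factor, Ncf1 stood at 2.75, 2.36 and 5.82 in KO_LPS, 3.39, 5.97 and 5.92 in WT_LPS, and 5.07 and 6.38 in WT_PBS. The 3 libraries that stood apart on the first component thus had the 3 lowest Ncf1 to Csf3r ratios. The part of that component in these ratios was not tested.

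**Figure D2:**
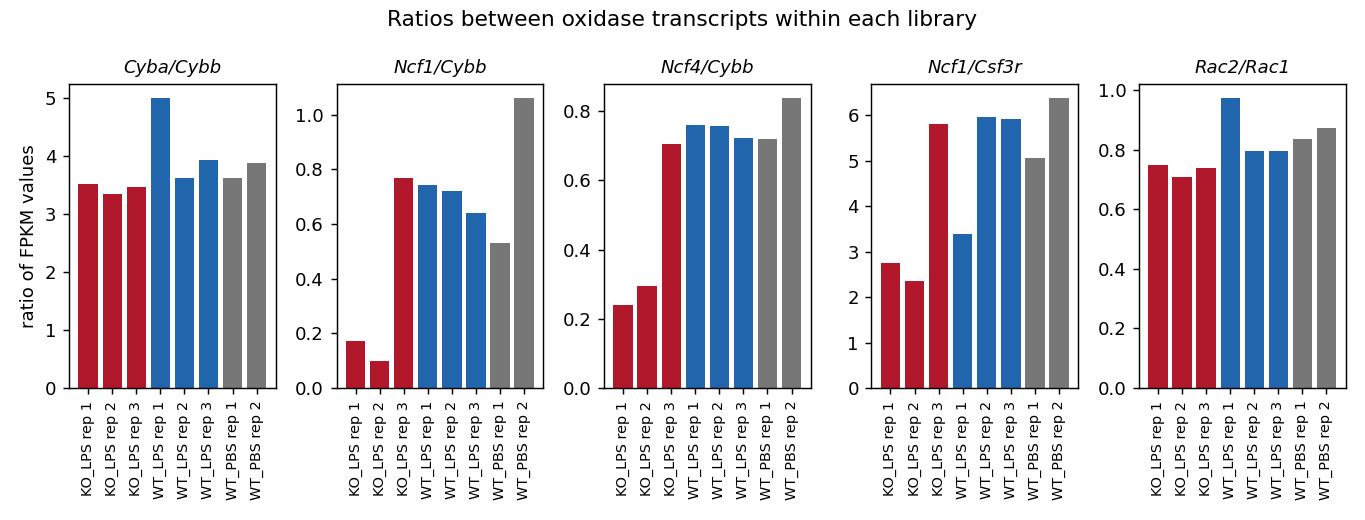
Ratios of FPKM values within each of the 8 libraries (bars; KO_LPS red, WT_LPS blue, WT_PBS grey), each axis starting at 0. Ncf1/Cybb is 0.17 and 0.0977 in KO_LPS replicates 1 and 2 and 0.531 to 1.06 elsewhere, while Cyba/Cybb stays between 3.34 and 4.99.

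The first comparison set marrow with Aid-deficient leukaemia against marrow with intact Aid, both with LPS. Ncf1 averaged 28.1 ± 29.9 FPKM in KO_LPS and 52.4 ± 9.06 FPKM in WT_LPS (SD, n = 3 each), and Ncf4 33.0 ± 20.9 FPKM in KO_LPS and 55.8 ± 7.42 FPKM in WT_LPS. In log2(FPKM + 1) the differences were -1.40 ± 0.66 (SE) for Ncf1 and -0.89 ± 0.35 for Ncf4. For the other members they were small, at -0.16 ± 0.17 for Cyba (0.08 with library weights), -0.16 ± 0.11 for Rac2 and 0.10 ± 0.13 for Cybb. The Ncf1 difference from WT_LPS rested on KO_LPS replicates 1 and 2, since KO_LPS replicate 3 was above every WT_LPS library.

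No member separated KO_LPS from WT_LPS: the groups overlapped for 5 of 5, where 9.14% of the 12061 genes tested did not overlap. By limma with Benjamini-Hochberg adjustment, 0 of 5 members passed at 0.05, beside 10 of 12061 genes (0.0829%), and 1 of 5 had an unadjusted p under 0.05, beside 686 of all genes. Since the members were chosen with these values known, nothing is read from their counts. The differences of Ncf1 and Ncf4 depended on the KO_LPS library left out. Without KO_LPS replicate 3 they were -2.24 and -1.36, and without KO_LPS replicate 2 they were -0.73 and -0.65. Without the 3 libraries that stood apart, which leaves 1 KO_LPS library, they were 0.32 and 0.07. With the first component as a covariate they were -0.53 and -0.46.

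The second comparison set LPS against saline where the leukaemia had intact Aid. Ncf1 averaged 52.4 ± 9.06 FPKM in WT_LPS (SD, n = 3) and 64.2 ± 33.2 FPKM in WT_PBS (n = 2). Cybb averaged 74.5 ± 8.17 FPKM in WT_LPS and 79.5 ± 4.09 FPKM in WT_PBS. The log2 differences of the 5 members lay between -0.20 ± 0.73 for Ncf1 and 0.06 ± 0.12 for Rac2. Groups overlapped for all 5 members, where 15.7% of genes did not overlap, and limma passed 0 of 12061 genes (0%), with 142 at an unadjusted p under 0.05 and 0 of the 5 members among these. The sign for Ncf1 turned with a single library: it was -0.75 without WT_PBS replicate 1 and 0.34 without WT_PBS replicate 2.

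The third comparison, of KO_LPS with WT_PBS, differs in both genotype and treatment and shares its libraries with the other 2. Ncf1 averaged 28.1 ± 29.9 FPKM in KO_LPS and 64.2 ± 33.2 FPKM in WT_PBS, a log2 difference of -1.60 ± 0.73, and Ncf4 differed by -1.05 ± 0.39. For Ncf1 it was -2.44 without KO_LPS replicate 3, -0.93 without KO_LPS replicate 2 and -1.06 without WT_PBS replicate 2, and without the 3 libraries that stood apart it was 0.06. Rac2 averaged 200.0 ± 8.66 FPKM in KO_LPS and 215 ± 4.39 FPKM in WT_PBS, a log2 difference of -0.10 ± 0.12 that became 0.05 with median-ratio scaling. It was the 1 member of 5 whose groups did not overlap, where 21.5% of genes did not. Cyba differed by -0.12 ± 0.19, which became 0.03 with median-ratio scaling, and Cybb by 0.00 ± 0.15. Limma passed 6 of 12061 genes (0.0497%) and 0 of the 5 members, 1 of which had an unadjusted p under 0.05, beside 807 of all genes. The median difference over all genes was -0.12 here and 0.01 with median-ratio scaling.

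**Figure D3:**
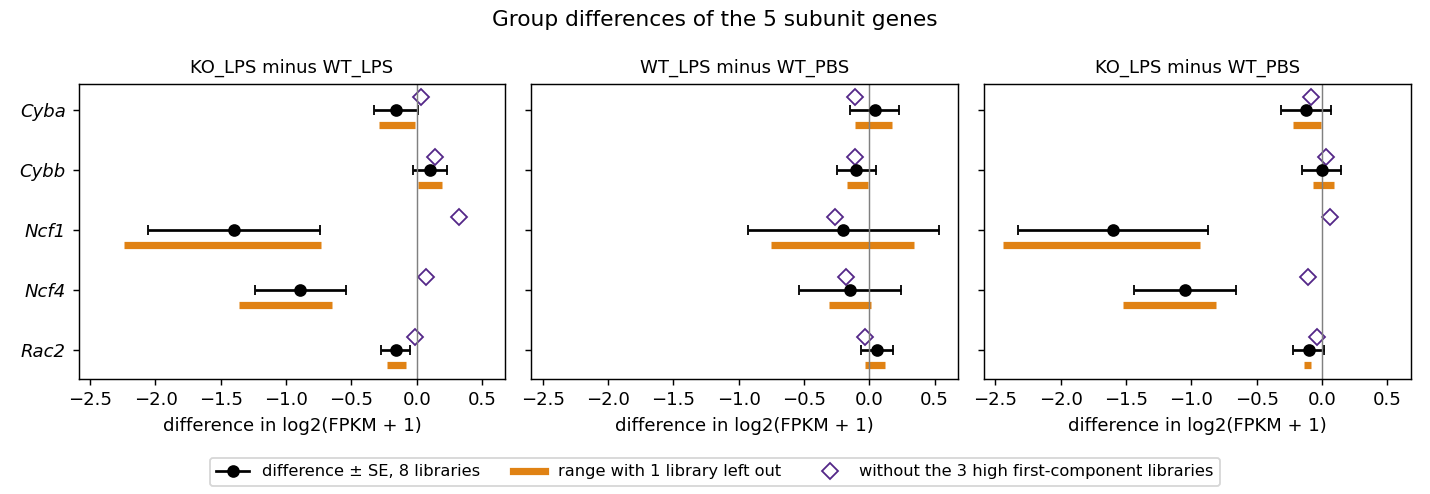
Difference in log2(FPKM + 1) of each member in the 3 comparisons (black point and bar: limma estimate ± SE from 8 libraries; orange: range with 1 library left out; open diamond: without the 3 libraries that stood apart). In KO_LPS minus WT_LPS, Ncf1 lies at -1.40 and Ncf4 at -0.89 with all libraries, and at 0.32 and 0.07 without those 3.

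KO_LPS replicates 1 and 2 were the 2 lowest libraries for Ncf1, Ncf4 and Rac2, a pattern chosen for counting after the values were seen. The same held for 23.4% of all tested genes. It also held for 17 of 20 neutrophil markers, 8 of 16 monocyte and macrophage markers, 3 of 12 tested B-lineage markers, 2 of 11 T and NK cell markers and 0 of 2 erythroid markers. In these bulk libraries, fewer cells of a type and less RNA per cell cannot be told apart. Mmp8, a granule collagenase among the neutrophil markers, was also lowest in KO_LPS replicates 1 and 2. The part of neutrophil transcripts in the Ncf1 level was not tested. The Ncf1 to Mmp8 ratio was 1.79, 0.766 and 1.03 in KO_LPS, 0.86, 1.2 and 1.26 in WT_LPS, and 0.942 and 1.1 in WT_PBS, without a separation of groups.

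The neutrophil marker S100a8, a subunit of calprotectin, read 2966.17, 2449.55 and 5860.55 FPKM in KO_LPS, 11250.46, 3468.94 and 3561.45 FPKM in WT_LPS, and 4899.46 and 6153.39 FPKM in WT_PBS. The Ncf1 to S100a8 ratio was 0.00507, 0.0028 and 0.0106 in KO_LPS. It was 0.00501, 0.017 and 0.0118 in WT_LPS, and 0.00831 and 0.0142 in WT_PBS. The lowest values were those of the libraries that stood apart. Monocyte and macrophage markers did not share a direction in KO_LPS replicates 1 and 2. C1qb, a complement chain of tissue macrophages, read 93.09, 76.27 and 24.06 FPKM in KO_LPS, 24.34, 21.91 and 17.51 FPKM in WT_LPS, and 16.32 and 23.75 FPKM in WT_PBS. C1qb was therefore highest in the 2 libraries with the least Ncf1. Fn1, which encodes the matrix protein fibronectin and had the largest difference of the monocyte and macrophage list, read 8.0, 7.5 and 23.75 FPKM in KO_LPS, 50.32, 31.31 and 28.41 FPKM in WT_LPS, and 36.15 and 24.12 FPKM in WT_PBS. It was lowest in KO_LPS replicates 1 and 2, with a log2 difference of -1.56 ± 0.41 from WT_LPS (limma, adjusted p = 0.502). Between KO_LPS and WT_LPS, 20 of 20 neutrophil markers lay below 0, with a median log2 difference of -0.72, and 0 passed (limma; 1 at an unadjusted p under 0.05). Of 16 monocyte and macrophage markers, 11 lay below 0 with a median of -0.34, and 0 passed, with 5 at an unadjusted p under 0.05. Over all genes the median was -0.06, and 58.0% lay below 0.

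The wider oxidase pathway was described through lists chosen with earlier results of these data known. In each of the 3 comparisons limma passed 0 of 148 tested genes of 12 lists, with 17 at an unadjusted p under 0.05 between KO_LPS and WT_LPS, 0 between WT_LPS and WT_PBS, and 20 between KO_LPS and WT_PBS. Over all 12061 genes, 686, 142 and 807 had such an unadjusted p in these comparisons, and 10, 0 and 6 passed. The same counts over all genes stand beside those of each single list. Of 20 oxidase partners and activators, 16 (beside 58.0% of all tested genes) lay below 0 between KO_LPS and WT_LPS, with a median of -0.23. The most abundant were Arhgdib and Arhgdia, which hold small GTPases inactive, Coro1a, an actin-binding protein of leukocytes, and Rac1. The largest difference among them was that of Vav3, an exchange factor for Rac, at -0.55 ± 0.35 (limma, adjusted p = 0.765). Rac1 differed by 0.06 ± 0.09 and Arhgdia by -0.09 ± 0.09.

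Other NADPH oxidases were at or near 0. Nox1, Nox4, Duox1 and Duox2, catalytic chains of the non-phagocyte oxidases, were at most 0.17 FPKM in every library. Noxo1, the organiser that replaces Ncf1 in epithelia, was at 0.89 to 1.9 FPKM. Sh3pxd2a, an Ncf1-related scaffold of podosomes, was at 5.91 to 9.36 FPKM. Of the 4 tested genes of this list, 3 lay above 0 between KO_LPS and WT_LPS and 0 passed.

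Most receptors that trigger the oxidase had lower estimates in KO_LPS, without passing the test. Of 14, 11 lay below 0 against WT_LPS, with a median of -0.31, and 0 passed, with 3 at an unadjusted p under 0.05. Of all tested genes, 58.0% lay below 0 in this comparison. Itgb2, the common beta chain of leukocyte integrins, read 42.8, 32.84 and 68.01 FPKM in KO_LPS, against 100.8, 78.36 and 61.58 FPKM in WT_LPS, a difference of -0.77 ± 0.27 (limma, adjusted p = 0.747). Fpr1, a receptor for bacterial formyl peptides, read 3.03, 2.31 and 16.19 FPKM in KO_LPS, against 11.66, 15.4 and 10.23 FPKM in WT_LPS, with the same low libraries as Ncf1. Fcer1g and Syk, which signal below Fc receptors, differed by -0.22 ± 0.22 and -0.04 ± 0.19.

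Enzymes that supply NADPH lay below 0 between KO_LPS and WT_LPS in 11 of 11 tested genes, with a median of -0.28, and 0 passed. By limma, 1 had an unadjusted p under 0.05. Of all tested genes, 58.0% lay below 0. Pgd, an NADPH-making enzyme of the pentose phosphate pathway, read 55.95, 45.18 and 99.28 FPKM in KO_LPS, against 114.79, 106.31 and 86.41 FPKM in WT_LPS. Its difference was -0.68 ± 0.29 (limma, adjusted p = 0.765). Nadk, the kinase that makes NADP from NAD, read 29.32, 20.37 and 58.97 FPKM in KO_LPS, against 49.35, 68.91 and 51.85 FPKM in WT_LPS. For both genes KO_LPS replicates 1 and 2 were low and KO_LPS replicate 3 was not. KO_LPS replicates 1 and 2 were the 2 lowest of all libraries for 7 of the 11 genes, beside 23.4% of all tested genes. Pgls and Tkt, also of that pathway, differed by -0.04 ± 0.15 and -0.05 ± 0.11.

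Genes of oxidant defence showed no common direction. Of 23 tested, 12 lay above and 11 below 0 between KO_LPS and WT_LPS, with a median of 0.06, and 0 passed, with 2 at an unadjusted p under 0.05. Sod1, the cytosolic superoxide dismutase, read 844.24, 871.13 and 645.36 FPKM in KO_LPS, against 875.17, 625.35 and 706.92 FPKM in WT_LPS. Slc7a11, the cystine importer for glutathione synthesis, read 1.24, 1.22 and 0.86 FPKM in KO_LPS, against 0.49, 0.38 and 0.35 FPKM in WT_LPS, with a difference of 0.58 ± 0.15 (limma, adjusted p = 0.502). Its groups did not overlap, where 9.14% of the 12061 tested genes did not. It averaged 0.645 FPKM, near the filter of 0.5 FPKM, and was named for its large difference. Nfe2l2, the transcription factor of the antioxidant response, read 4.78, 6.2 and 33.68 FPKM in KO_LPS, against 5.19, 33.55 and 23.64 FPKM in WT_LPS. It was lowest in the 3 libraries that stood apart, unlike Ncf1, which read 56.36 FPKM in WT_LPS replicate 1.

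Transcription factors known to act on oxidase promoters also differed in pattern. Spi1, which encodes PU.1, read 143.97, 136.69 and 130.85 FPKM in KO_LPS, 187.78, 144.51 and 125.12 FPKM in WT_LPS, and 127.81 and 145.48 FPKM in WT_PBS, and it overlapped between groups. Cebpe, a factor of late granulocyte maturation, read 3.93, 3.16 and 23.49 FPKM in KO_LPS, 21.05, 19.09 and 12.25 FPKM in WT_LPS, and 12.54 and 28.1 FPKM in WT_PBS, low in the same libraries as Ncf1. Irf1, an interferon-induced factor, read 53.08, 92.56 and 49.43 FPKM in KO_LPS, 33.3, 31.88 and 25.58 FPKM in WT_LPS, and 25.55 and 25.8 FPKM in WT_PBS. All KO_LPS libraries were above all others for Irf1, with a log2 difference of 1.03 ± 0.23 from WT_LPS (limma, adjusted p = 0.339). Between KO_LPS and WT_LPS, 9.14% of the 12061 tested genes did not overlap in either direction. Of 12 tested factors 0 passed, with 1 at an unadjusted p under 0.05.

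The genes most like the members were ranked among 8029 named genes that averaged 5 FPKM or more by Pearson's r with the mean of the 5 scaled log2 profiles over the 8 libraries. The first was Csf3r (r = 0.984), at 5.48, 2.91 and 10.71 FPKM in KO_LPS, 16.64, 9.86 and 7.11 FPKM in WT_LPS, and 8.02 and 13.75 FPKM in WT_PBS. It was followed by Lpcat4 (0.974), an acyltransferase of phospholipids, Ebi3 (0.973), a subunit of interleukin-27, and Retnlg (0.968), a resistin-like protein of neutrophils. Cpne2 (0.968), Lmo4 (0.967), Sema4a (0.962) and Mboat7 (0.961) completed the 8. Itgam, the alpha chain of the complement receptor integrin, ranked ninth. S100a8 had r = 0.852 and rank 176. After scaling, the steady members weighed as much as Ncf1 and Ncf4. The mean profile was -1.46 in KO_LPS replicate 2, -0.41 in WT_LPS replicate 3 and -0.33 in KO_LPS replicate 1. It thus differed from Ncf1 and Ncf4, which were lowest in KO_LPS replicates 1 and 2. The r values are a description over 8 libraries that differ in their neutrophil and B-lineage marker sums, for genes selected as the highest of many.

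**Figure D4:**
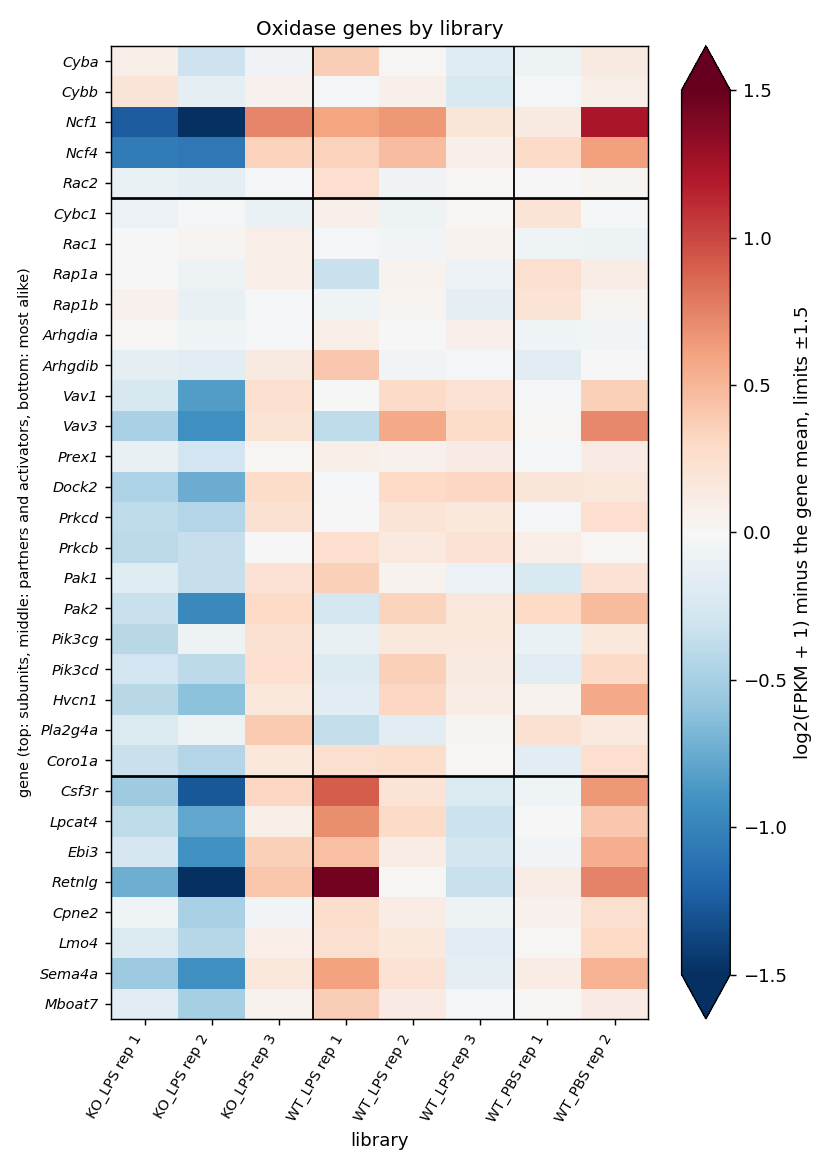
Log2(FPKM + 1) minus the mean of each gene over 8 libraries (colour, limits ±1.5), for the 5 members (top), 19 of the 20 partners and activators (middle) and the 8 most alike genes (bottom). The lowest colours of Ncf1 and Ncf4 are in KO_LPS replicates 1 and 2, whereas Cybb, Cyba and Rac2 stay near 0.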

How the data were processed

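Bone marrow RNA of 8 libraries in 3 groups was measured by RNA sequencing, with a SMARTer mRNA kit for total RNA according to the labels. Values were deposited as FPKM, per the file headers, with 2 decimals. The submitters' processing notes name GRCm38 and mm10 (one assembly), and aligner and quantifier are not stated in what was read here. FPKM corrects for length and library total but not for composition, so an abundant transcript lowers the others. Since read depth is unknown, no counting interval can be had. The labels name no separate cultures, so p-values reflect the spread among these libraries alone, which could be technical.

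Gene numbers were matched to symbols for 16798 of 18020 rows with RefSeq (GRCm38.p6), which also gave promoters. Groups came from titles, and replicate numbers follow accession order. The 12061 genes averaging 0.5 FPKM or more were fitted as log2(FPKM + 1) with limma 3.58.1 in R 4.3.3, with all 8 libraries, an intensity trend and Benjamini-Hochberg adjustment within each comparison (threshold 0.05, two-sided). Fold differences on this scale understate changes of low genes. The members and the 12 lists (172 further genes) were chosen with earlier results of these data known. Genes named from a list were among those that passed, the 4 highest mean levels and the 2 largest differences of KO_LPS from WT_LPS. Not all genes that this rule selects are named, and some lists have none named. Other genes named were chosen after their values were seen: Cybc1, Nox1, Nox4, Duox1, Duox2, Rac3 and Itgam. Some genes, and a check of the genotype labels, are not reported here. The 8 genes most alike were also named. The fit was tried on simulated data with independent noise for each gene and library. The real libraries share a first component with 60.5% of the variance, which the simulation left out, so it does not cover that case. Results were recomputed under 17 other settings and 3 more chosen after seeing the data: GC and length trends removed (92.7% of tested genes have values), the first component as covariate, and 3 libraries left out.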

Additional observations from a re-analysis of the deposited data

How the results depend on the processing

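Over 20 alternatives and 3 comparisons, 283 of 300 member differences moved by less than the spread between replicates (1 SD) and 17 moved more. The cause was not tested. The count is no measure of stability, because many alternatives cannot change a difference. These are another filter, robust moderation, only the 2 groups compared, and a library left out of the group not compared. The spread is also wide for Ncf1. Between KO_LPS and WT_LPS, -2.24 and -0.53 were within 1 SD of -1.40. No paired analysis was possible because the groups share no replicate numbers in the labels. Without the 3 libraries that stood apart, chosen after seeing the data, Ncf1, Ncf4 and Rac2 gave 0.32, 0.07 and -0.01 between KO_LPS and WT_LPS and 0.06, -0.11 and -0.04 between KO_LPS and WT_PBS. With GC and length trends removed, Rac2 gave -0.02 and 0.05 in these comparisons, and Cybb 0.19 between KO_LPS and WT_PBS and 0.08 between WT_LPS and WT_PBS. Library weights, estimated at 0.246 for KO_LPS replicate 3 and 10.1 for WT_LPS replicate 3, gave Cybb 0.27 between KO_LPS and WT_LPS and -0.24 between WT_LPS and WT_PBS. Between KO_LPS and WT_PBS, median-ratio scaling gave Cybb 0.15 and Rac2 0.05, and quantile normalization gave Rac2 -0.26. With 1 library left out, Ncf1 ranged from -2.24 to -0.73 between KO_LPS and WT_LPS, from -0.75 to 0.34 between WT_LPS and WT_PBS and from -2.44 to -0.93 between KO_LPS and WT_PBS.

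Counts over all genes moved more. Between KO_LPS and WT_LPS the 10 calls became 5 with no filter, 2 with a mean of at least 5 FPKM, 0 with only the 2 groups compared, 2727 with library weights, 1 without the 3 libraries and 16 with the first component as covariate. Between KO_LPS and WT_PBS the 6 calls became 0, 3, 0, 73 and 1 under the first 5 of these, and 3 with median-ratio scaling and 10 with quantile normalization. With 1 library left out, counts ranged from 0 to 161 between KO_LPS and WT_LPS, 0 to 2 between WT_LPS and WT_PBS and 0 to 125 between KO_LPS and WT_PBS, where both maxima in comparisons with KO_LPS were without KO_LPS replicate 3. The 0 list genes called became 46 with library weights and 0 to 9 with 1 library left out between KO_LPS and WT_LPS, and 1 and 0 to 10 between KO_LPS and WT_PBS. Groups of 2 or 3 libraries limit the precision of every value.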
